A study of Homo sapiens with 18 samples.

Results

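The 10 genes described here include the PEA3 group of ETS transcription factors (ETV1, ETV4 and ETV5) and the ETS factors ELK1, ETS1 and ETS2. The others are the AP-1 subunit FOSL1, the early response genes IER3 and PHLDA1, and MYEOV. All 10 were measured, by 35 of the 49395 probe sets on the array, and are 10 of the 18132 genes it names. A probe set, the group of short probes that together report on a transcript, was taken when its annotation carried only the symbol of a member. That gave 8 probe sets for ETV1, 2 for ETV4, 4 for ETV5, 6 for FOSL1, 3 for ELK1, 3 for ETS1, 2 for ETS2, 1 for IER3, 4 for PHLDA1 and 2 for MYEOV. The leading probe set of a gene is the one with the highest mean over all arrays.

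The samples were 18 arrays of human colorectal cancer cells in 6 groups of 3. WiDr cells, widely regarded as a derivative of HT29, were treated with AZ628, transduced with an shRNA against IKKα, transduced with a control shRNA, or given vehicle. HT29 cells were treated with AZ628 or given vehicle. AZ628 is a small-molecule inhibitor of RAF kinases, and both lines carry an activating BRAF mutation. IKKα is the kinase encoded by CHUK. The labels name neither the dose nor the duration of AZ628, and do not say which shRNA sequence was used or whether the transduced cells were a pool or a clone. The series title concerns the need for IKKα in BRAF-driven tumour growth, and the design compares the drug with vehicle in both lines and, in WiDr, the IKKα shRNA with the control shRNA.

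In BRAF-mutant cells the kinase signals continuously through MEK to ERK, which phosphorylates transcription factors and switches on a short list of genes. The PEA3 factors bind DNA through the ETS domain, are induced by ERK signalling and are held down by the repressor CIC when the pathway is silent. ELK1 works with serum response factor at immediate early genes after ERK phosphorylates it, ETS1 and ETS2 are also ERK substrates, and FOSL1 (FRA1) is an AP-1 subunit that ERK both induces and stabilises. IER3 is an early survival gene, PHLDA1 encodes a pleckstrin homology-like protein induced by growth factors, and MYEOV is a gene beside the cyclin D1 locus whose protein is little characterised.

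RefSeq promoter windows (GRCh38.p14, 250 bases before to 50 after a transcript start) were available for 4 of the 10 genes, 10 windows in all. Of the 6 ETV1 windows, the one below is shown because it alone held a searched motif besides the short GGAA core of ETS sites, and the PHLDA1 window, the only one of that gene, is shown beside it. AZ628 lowered both genes in both lines. The capitals in the ETV1 window mark TGAATGGA, an octamer bound by CIC, found on the gene's own strand from -125 to -118 relative to the start. The PHLDA1 window held none of the searched motifs except GGAA, which is left in lower case in both windows.
ETV1 (chr7:13991376-13991675, minus strand): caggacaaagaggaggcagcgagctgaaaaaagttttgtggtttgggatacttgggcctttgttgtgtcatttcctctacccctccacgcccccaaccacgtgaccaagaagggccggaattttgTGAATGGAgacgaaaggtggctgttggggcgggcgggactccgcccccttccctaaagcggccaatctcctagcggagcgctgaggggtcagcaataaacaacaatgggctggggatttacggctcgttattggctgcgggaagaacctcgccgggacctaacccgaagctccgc
PHLDA1 (chr12:76031727-76032026, minus strand): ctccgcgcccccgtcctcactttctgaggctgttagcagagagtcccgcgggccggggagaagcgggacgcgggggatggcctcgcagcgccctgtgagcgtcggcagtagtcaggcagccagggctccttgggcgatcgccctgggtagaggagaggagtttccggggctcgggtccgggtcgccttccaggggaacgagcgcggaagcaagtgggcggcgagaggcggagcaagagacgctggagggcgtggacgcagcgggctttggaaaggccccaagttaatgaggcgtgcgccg
The search covered both strands for the CIC octamers TGAATGAA and TGAATGGA, the AP-1 heptamer TGANTCA, the ETS octamer CCGGAAGT (which contains GGAA), the cyclic AMP element TGACGTCA and the CArG box of serum response factor. TGAATGGA was in 1 of the 10 member windows and in 1.03% of all 35116 windows of the same length. Some of the 6 ETV1 windows overlap each other, so the 10 are not separate stretches. The other motifs, GGAA apart, were in 1.65% (TGAATGAA), 7.71% (TGANTCA), 4.14% (CCGGAAGT), 1.85% (TGACGTCA) and 1.29% (CArG box) of all windows and in no member window. GGAA was in 95.5% of all windows and in 10 of the 10. A match describes the letters only, and windows for the other members were not used here.

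Arrays of the same group correlated at 0.996 to 0.998 over all probe sets, and no pair of arrays held identical values. The median log2 signal over all probe sets was 6.05, with quartiles of 4.29 and 8.27. CHUK averaged 7.52 ± 0.25 with IKKα shRNA and 9.64 ± 0.17 with control shRNA (log2 signal, SD, n = 3 each), a difference of -2.12 (SE 0.13, limma adjusted p = 4.19e-10). AZ628 also lowered CHUK, by a log2 difference of -0.43 in WiDr (adjusted p = 0.00995) and, in HT29, of -0.37 (adjusted p = 0.0239). All 10 colorectal epithelial markers were measured, with a median level of 12.0, although the intestinal markers CDX1, CDX2 and CDH17 were at the low end of their range (5.49 to 14.2). The 6 fibroblast markers lay between 3.22 and 5.61 and the 4 endothelial markers between 4.16 and 6.21. The mean log2 level of the fibroblast list was 4.69 to 4.80 over the IKKα shRNA arrays, against 4.11 to 4.17 with control shRNA, and that of the epithelial list 10.44 to 10.48, against 10.69 to 10.73. With AZ628 the epithelial list was at 10.67 to 10.71 in WiDr, against 10.48 to 10.55 with vehicle, and at 10.67 to 10.69 in HT29, against 10.46 to 10.49, and the fibroblast list at 4.35 to 4.47, against 4.11 to 4.34, and 4.65 to 4.71, against 4.34 to 4.55, in the same order of lines. The part of these shifts in the members' changes was not tested. Of 4 blood markers, lysozyme (LYZ) was at 13.8 and the pan-leukocyte marker PTPRC at 3.18. No label states that replicate arrays are separate cultures, so the p-values measure the spread between arrays, which may be technical, and 3 arrays a group limit the precision. In bulk RNA, fewer cells of a kind and less RNA per cell cannot be told apart.

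AZ628 lowered 29 of the 35 probe sets in WiDr and 26 in HT29, including the leading probe set of 9 of the 10 genes in each line, and raised the ETS1 leading probe set in both. ETV5, MYEOV and ETV1 fell the most, by 13.3-fold to 34.0-fold on their leading probe sets, and FOSL1, IER3, PHLDA1 and ETV4 by 2.45-fold to 8.02-fold. Over all 49293 tested probe sets, 19% were lower and 20.2% higher with AZ628 in WiDr, and 18.7% were lower and 19.6% higher in HT29 (limma, Benjamini-Hochberg adjusted p under 0.05). The 2 member probe sets that were higher in each line were both of ETS1, and 4 in WiDr and 7 in HT29 did not pass. The median log2 difference over the 35 was -1.12 in WiDr and -0.97 in HT29, while the median over all probe sets was within 0.04 of 0. At a fold of at least 2 as well, 19 members were lower in WiDr, against 3.68% of all probe sets, and 17 in HT29, against 3.17%. Over the leading probe sets of all genes, 20.5% were lower and 22.8% higher in WiDr, and 20.4% lower and 21.8% higher in HT29.

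**Figure D1:**
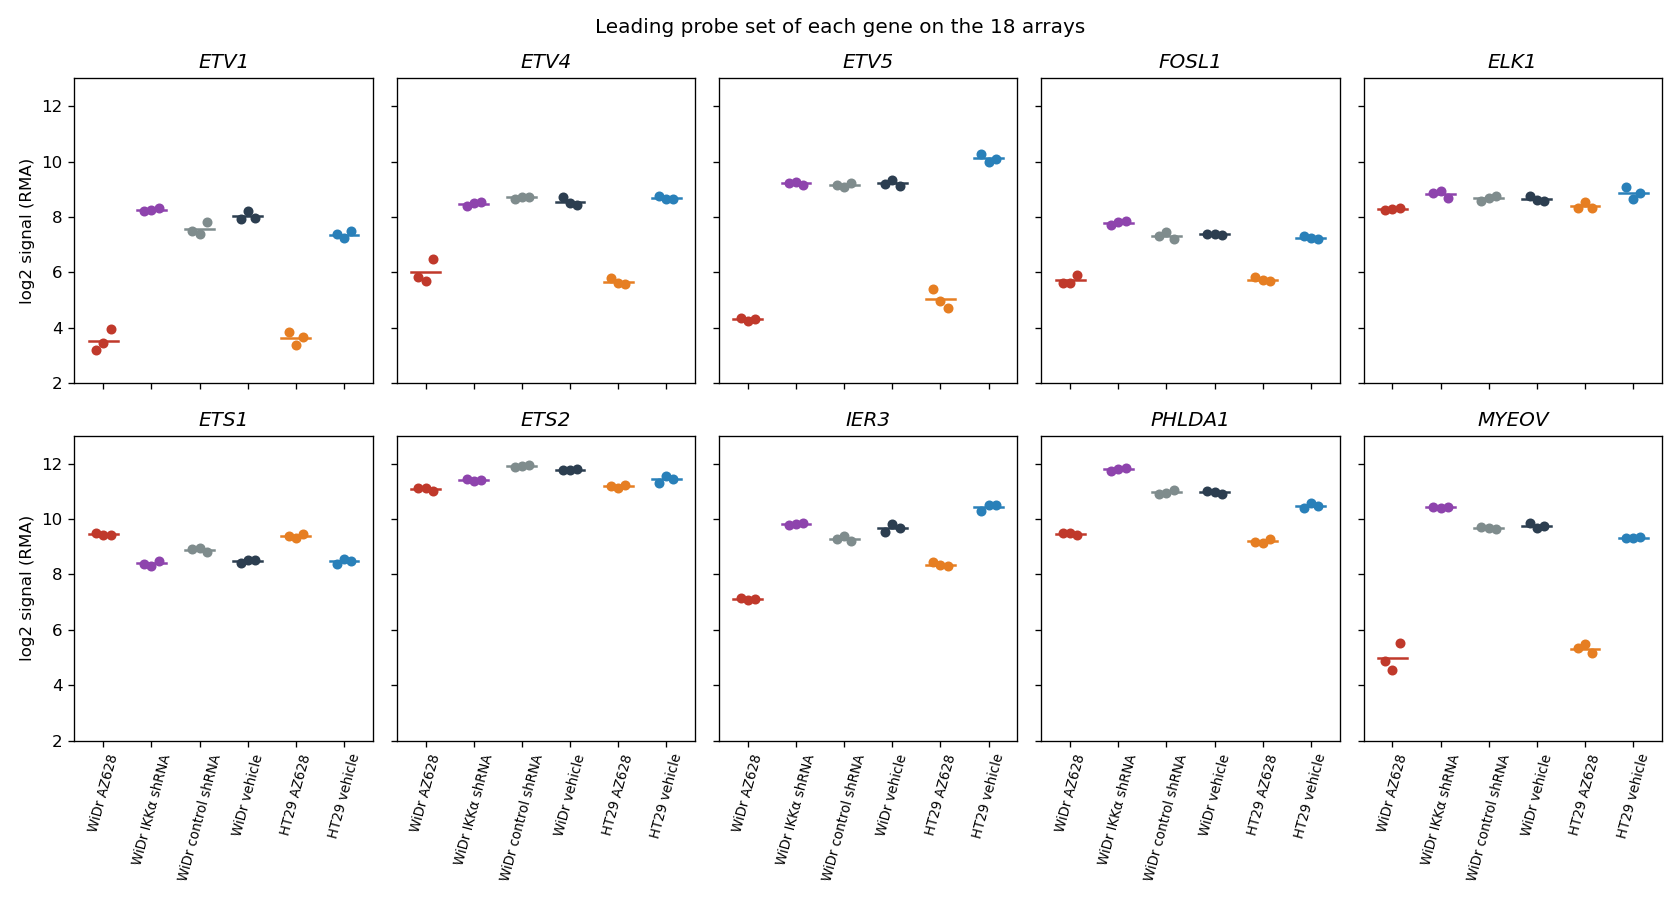
Log2 signal of the leading probe set of each of the 10 genes on every array, by group, with AZ628 and shRNA groups left of the vehicle group of the same line. Points are single arrays and horizontal lines are group means (n = 3). The AZ628 arrays of ETV1, ETV5 and MYEOV sit between 3.19 and 5.54, below every other array of the same gene.

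ETV5, one of the PEA3 factors, had log2 signals of 4.34, 4.26 and 4.32 on its leading probe set in AZ628-treated WiDr, against 9.19, 9.33 and 9.12 in vehicle-treated WiDr. In HT29 the values were 5.40, 4.96 and 4.73 with AZ628, against 10.27, 9.98 and 10.10 with vehicle. The drug and vehicle arrays did not overlap in either line, and the HT29 arrays were above the WiDr arrays under both treatments. The WiDr drug arrays averaged 4.31, close to the lower quartile of all probe sets, 4.29, where a fold change can be understated. The log2 difference was -4.90 (SE 0.12, 29.9-fold lower, adjusted p = 1.94e-15) in WiDr and -5.09 (34.0-fold lower, adjusted p = 4.84e-15) in HT29. All 4 ETV5 probe sets fell in both lines. The other 3 changed by -3.42, -4.30 and -1.08 in WiDr and by -4.38, -5.07 and -1.15 in HT29, in the order 11720351_a_at, 11720352_at and 11748612_a_at.

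ETV1, a second PEA3 factor, gave 3.19, 3.46 and 3.94 in AZ628-treated WiDr, against 7.93, 8.21 and 7.96 with vehicle. In HT29 it gave 3.83, 3.38 and 3.68 with AZ628, against 7.38, 7.22 and 7.49 with vehicle. All 6 drug arrays lay under the lower quartile of the whole array, where background-level signal flattens log2 values and a fold change can be understated. This was a log2 difference of -4.50 (SE 0.16, 22.7-fold lower, adjusted p = 1.93e-13) in WiDr and -3.74 (13.3-fold lower, adjusted p = 3.15e-12) in HT29. Its 8 probe sets did not move alike. Probe set 11733180_a_at changed by -3.48 in WiDr and -3.25 in HT29, and 11733181_at by -1.42 in WiDr and -1.0 in HT29. With AZ628, 11733180_a_at averaged 3.50 in WiDr and 3.14 in HT29, also under the lower quartile. Changes of -0.90 in WiDr and -0.48 in HT29 were measured on 11748965_x_at, of -0.86 and -0.88 on 11733183_x_at, and of -0.42 and -0.36 on 11733182_a_at, in the same line order. Probe set 11748964_a_at changed by -0.36 in WiDr (adjusted p = 0.0144), a call lost without AZ628-treated replicate 1 (adjusted p = 0.0836) or vehicle-treated replicate 3 (adjusted p = 0.0544), and did not pass in HT29 (-0.22, 95% interval -0.46 to 0.01). The last, 11747748_a_at, passed in neither line (-0.20 in WiDr, -0.51 to 0.10, and 0.00 in HT29, -0.30 to 0.31). Its mean over all arrays, 3.48, was under the lower quartile, as were those of 11733182_a_at, 11733181_at and 11748964_a_at.

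ETV4, the founding PEA3 factor, had leading log2 signals of 5.82, 5.68 and 6.50 in AZ628-treated WiDr, against 8.72, 8.50 and 8.45 with vehicle. In HT29 they were 5.80, 5.63 and 5.58 with AZ628, against 8.74, 8.64 and 8.63 with vehicle. The WiDr drug arrays were the most scattered of these groups, yet the highest was well under the lowest vehicle array. The fitted log2 difference was -2.56 (SE 0.14, adjusted p = 7.66e-11) for WiDr and -3.00 (adjusted p = 1.29e-11) for HT29. The second probe set, 11747996_a_at, changed by -2.33 in WiDr and -2.09 in HT29.

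FOSL1, the AP-1 subunit, had leading log2 signals of 5.63, 5.62 and 5.89 in AZ628-treated WiDr, against 7.38, 7.39 and 7.34 with vehicle. HT29 gave 5.82, 5.71 and 5.70 with AZ628, against 7.32, 7.25 and 7.19 with vehicle. Drug and vehicle arrays were apart in both lines, and the lines were close to each other under each treatment. In log2 terms the difference was -1.66 (SE 0.08, adjusted p = 1.13e-11) in WiDr and -1.51 (adjusted p = 5.26e-11) in HT29. The probe set that fell most was 11724478_s_at, with -2.78 in WiDr and -2.80 in HT29. With AZ628 it averaged 3.90 in WiDr and 3.80 in HT29, under the lower quartile of 4.29. After it and the leading one came 11724479_x_at (-1.19 and -0.97 in that line order) and 11724477_a_at (-0.58 and -0.68). Probe sets 11760573_a_at and 11760284_a_at fell in WiDr (-0.47 and -0.29). In HT29 their differences were -0.19 (95% interval -0.36 to -0.02, adjusted p = 0.0725) and -0.23 (-0.45 to -0.01, adjusted p = 0.094). The WiDr call of 11760284_a_at (adjusted p = 0.0358) was lost without AZ628-treated replicate 1 or 3 or vehicle-treated replicate 2 or 3, with adjusted p of 0.0910 to 0.167.

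**Figure D2:**
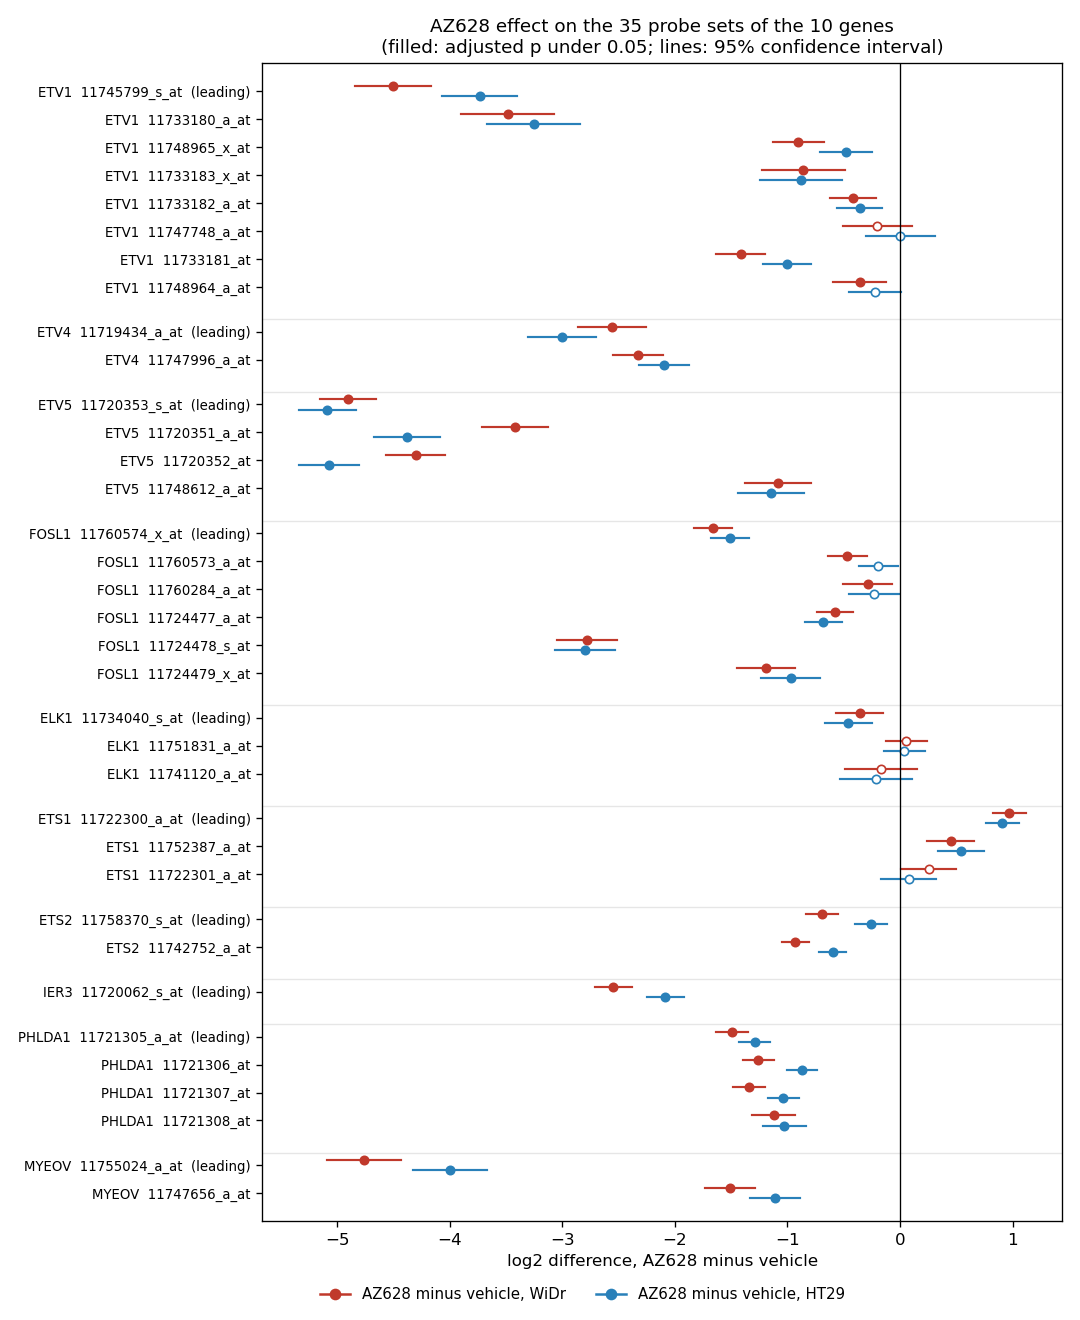
Log2 difference between AZ628 and vehicle for all 35 probe sets in WiDr and HT29, with 95% confidence intervals. Filled points passed an adjusted p of 0.05. Most points lie left of 0 in both lines, and the ETS1 leading probe set lies right of it at 0.97 and 0.91.

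Among the remaining ETS factors, ETS1, an ERK substrate with roles in invasion and lymphoid development, moved up. Its leading probe set gave 9.51, 9.43 and 9.43 in AZ628-treated WiDr, against 8.42, 8.50 and 8.53 with vehicle, and 9.38, 9.31 and 9.44 in AZ628-treated HT29, against 8.37, 8.55 and 8.48 with vehicle. Every drug array was above every vehicle array. The estimate was a log2 difference of 0.97 (SE 0.07, adjusted p = 1.58e-09) in WiDr and 0.91 (adjusted p = 4.80e-09) in HT29. Probe set 11752387_a_at also rose, by 0.45 and 0.54, while 11722301_a_at did not pass (0.25 in WiDr, 95% interval 0.01 to 0.50, and 0.08 in HT29, -0.17 to 0.32).

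ETS2, its close paralog, went the other way. Leading log2 signals were 11.12, 11.10 and 11.01 in AZ628-treated WiDr, against 11.75, 11.75 and 11.81 with vehicle, and 11.17, 11.12 and 11.23 in AZ628-treated HT29, against 11.29, 11.56 and 11.45 with vehicle. The 2 groups were apart in each line but by little in HT29. That made a log2 difference of -0.69 (SE 0.07, adjusted p = 1.02e-07) in WiDr and -0.26 (adjusted p = 0.00432) in HT29. The second probe set, 11742752_a_at, changed by -0.93 in WiDr and -0.60 in HT29.

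ELK1, the partner of serum response factor, fell on its leading probe set. The leading log2 signals were 8.25, 8.28 and 8.34 in AZ628-treated WiDr, against 8.75, 8.60 and 8.59 with vehicle, and 8.31, 8.53 and 8.34 in AZ628-treated HT29, against 9.07, 8.64 and 8.85 with vehicle. Drug arrays were below vehicle arrays in both lines, with the narrowest gap in HT29. The log2 difference was -0.36 (SE 0.10, adjusted p = 0.00666) for WiDr and -0.46 (adjusted p = 9.55e-04) for HT29. The other 2 ELK1 probe sets did not pass. Their differences were 0.06 (95% interval -0.13 to 0.24) and -0.17 (-0.49 to 0.15) in WiDr, and 0.04 (-0.14 to 0.22) and -0.21 (-0.53 to 0.11) in HT29. When the 3 probe sets were averaged, the WiDr difference was -0.16 and no longer passed (adjusted p = 0.132).

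IER3, the early survival gene, had log2 signals of 7.16, 7.09 and 7.12 in AZ628-treated WiDr, against 9.53, 9.80 and 9.67 with vehicle. In HT29 they were 8.44, 8.33 and 8.29 with AZ628, against 10.29, 10.52 and 10.50 with vehicle. Both HT29 groups were above the matching WiDr groups, and drug and vehicle did not overlap. This was a log2 difference of -2.55 (SE 0.08, adjusted p = 3.05e-14) in WiDr and -2.09 (adjusted p = 5.80e-13) in HT29.

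PHLDA1 had leading log2 signals of 9.48, 9.50 and 9.41 in AZ628-treated WiDr, against 11.01, 10.97 and 10.90 with vehicle. In HT29 they were 9.18, 9.12 and 9.27 with AZ628, against 10.41, 10.58 and 10.45 with vehicle. Here the HT29 arrays were the lower ones under either treatment. The fitted log2 difference was -1.49 (SE 0.07, adjusted p = 3.21e-12) in WiDr and -1.29 (adjusted p = 2.91e-11) in HT29. The other 3 probe sets fell as well, with -1.34 to -1.12 in WiDr and -1.04 to -0.87 in HT29.

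MYEOV had leading log2 signals of 4.89, 4.56 and 5.54 in AZ628-treated WiDr, against 9.84, 9.68 and 9.76 with vehicle. In HT29 they were 5.32, 5.47 and 5.17 with AZ628, against 9.30, 9.31 and 9.35 with vehicle. The vehicle arrays were tight and the WiDr drug arrays were spread, with no overlap. In log2 terms the difference was -4.76 (SE 0.16, 27.2-fold lower, adjusted p = 6.57e-14) in WiDr and -4.00 (16.0-fold lower, adjusted p = 9.32e-13) in HT29. The second probe set, 11747656_a_at, also fell, with smaller differences of -1.51 in WiDr and -1.11 in HT29.

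**Figure D3:**
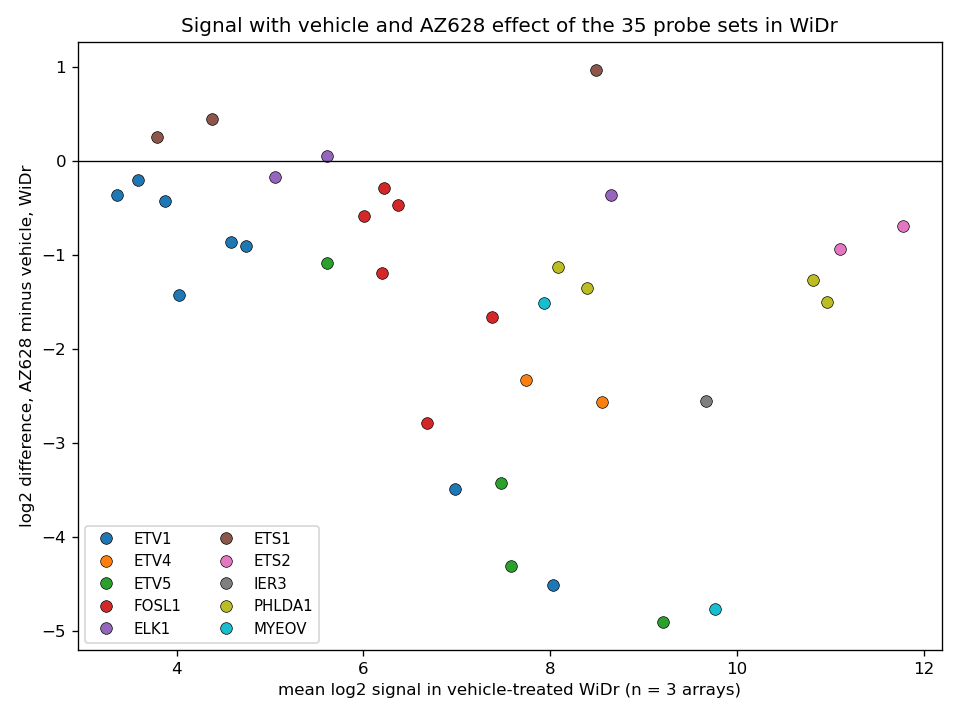
Log2 difference between AZ628 and vehicle in WiDr for each of the 35 probe sets, against its mean log2 signal in vehicle-treated WiDr (n = 3). Colours mark genes. The ETV1 points run from -0.20 on a dim probe set to -4.50 on the leading probe set, while the ETS1 points lie above 0.

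The drug effects ran close together in the 2 lines. Over the 35 probe sets the WiDr and HT29 differences had a Pearson r of 0.975, given as a description because probe sets of a gene share transcripts and the arrays of a line share a vehicle group. Of the 28 probe sets called in both lines, 28 had the same sign. The difference between the 2 effects was tested directly, as the HT29 effect minus the WiDr effect. It was called for 6 member probe sets, of which 4 were higher and 2 lower, when 2.43% of all probe sets were higher and 3.08% lower. It was -0.96 on ETV5 11720351_a_at (adjusted p = 0.00552) and -0.77 on 11720352_at (adjusted p = 0.0127). With AZ628 these averaged 4.13 and 3.44 in HT29 and 4.05 and 3.28 in WiDr, all under the lower quartile of 4.29, while with vehicle HT29 was above WiDr by 1.04 and 0.92. With both lines that low under the drug, the depths of the 2 falls cannot be told apart from the vehicle difference. On the ETV5 leading probe set the difference was -0.19 (95% interval -0.54 to 0.17), and averaged over the 4 probe sets, those 2 included, it was -0.50 (adjusted p = 0.00943). The HT29 fall was smaller for ETS2 on both probe sets (0.43, adjusted p = 0.00914, and 0.33, adjusted p = 0.0178), for IER3 (0.46, adjusted p = 0.0178) and for PHLDA1 11721306_at (0.39, adjusted p = 0.0156). The IER3 call was lost without vehicle-treated WiDr replicate 2 (0.39, adjusted p = 0.0534), AZ628-treated HT29 replicate 1 (0.42, adjusted p = 0.0557) or vehicle-treated HT29 replicate 1 (0.39, adjusted p = 0.0501). That of ETS2 11742752_a_at was lost without AZ628-treated WiDr replicate 2 (adjusted p = 0.0540) or AZ628-treated HT29 replicate 1 (adjusted p = 0.0509). For ETV1 and MYEOV the difference was 0.77 (0.29 to 1.24, adjusted p = 0.0583) and 0.76 (0.30 to 1.23, adjusted p = 0.0511). The leading ETV1 probe set averaged 3.53 in WiDr and 3.63 in HT29 with AZ628, under the lower quartile, and 8.03 and 7.37 with vehicle. The depths of the 2 ETV1 falls thus cannot be told apart from the vehicle difference either. Without AZ628-treated WiDr replicate 3, the drug array highest for both genes, the ETV1 and MYEOV differences became 0.97 (adjusted p = 0.00586) and 1.03 (adjusted p = 9.99e-05). Both also passed without the probe sets under the lower quartile, with quantile normalization repeated and with adjustment over genes (adjusted p of 0.0429 to 0.0482 for ETV1 and 0.0372 to 0.0423 for MYEOV), and ETV1 with an intensity trend (adjusted p = 0.0372). Averaged over its probe sets, MYEOV passed (0.58, adjusted p = 0.00233) and ETV1 did not (0.28, adjusted p = 0.128), while PHLDA1 gave 0.25 (adjusted p = 0.0273) against 0.20 on its leading probe set (adjusted p = 0.285).

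With IKKα shRNA against control shRNA, the leading probe sets of PHLDA1, MYEOV, ETV1, IER3 and FOSL1 rose, by log2 differences of 0.46 to 0.83. The leading probe sets of ETS2 and ETS1 fell, though the other ETS1 probe sets rose. Those of ETV4, ETV5 and ELK1 did not pass, with differences of -0.22, 0.07 and 0.15. Against control shRNA it raised 17 of the 35 probe sets, lowered 3 and left 15 that did not pass, where 14.2% of all probe sets were higher and 15.5% lower. Of the leading probe sets, 5 of 10 were higher and 2 lower, against 14.9% and 18.1% over the leading probe sets of all genes. The median over the 35 was 0.31 on the log2 scale. Changes were small, and 1 probe set passed at least 2-fold, where 1.41% of all probe sets did so upward. The IKKα shRNA arrays were also set against WiDr vehicle, a comparison that shares these arrays. There 14 probe sets were higher and 2 lower, against 16.1% and 15.1% of all. Of the leading probe sets, 3 were higher and 1 lower against vehicle, where 15.6% and 18.5% over all genes were. Those of ETV1 and IER3 did not pass against vehicle.

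Among the members, PHLDA1 showed the largest change with IKKα shRNA. Its leading log2 signals were 11.73, 11.79 and 11.84 with IKKα shRNA, against 10.91, 10.93 and 11.03 with control shRNA. The IKKα shRNA arrays were above all control shRNA and vehicle arrays. The estimate was a log2 difference of 0.83 (SE 0.07, adjusted p = 2.08e-08) against control shRNA and 0.83 (adjusted p = 2.68e-08) against vehicle. Probe set 11721307_at gave 9.48, 9.42 and 9.57 with IKKα shRNA, against 8.31, 8.23 and 8.27 with control shRNA, a difference of 1.22 (adjusted p = 1.36e-10), and 11721308_at rose by 0.69. Probe set 11721306_at did not pass against control shRNA (0.09, 95% interval -0.05 to 0.23) and was 0.35 higher than vehicle (adjusted p = 4.31e-04).

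MYEOV had leading log2 signals of 10.42, 10.40 and 10.43 with IKKα shRNA, against 9.72, 9.66 and 9.63 with control shRNA. The groups did not overlap. That made a log2 difference of 0.75 (SE 0.16, adjusted p = 0.00108), and the second probe set rose by 0.70. Against vehicle the leading difference was 0.65 (adjusted p = 0.00318).

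FOSL1 gave 7.70, 7.81 and 7.86 with IKKα shRNA, against 7.33, 7.45 and 7.20 with control shRNA. Every IKKα shRNA array was above every control shRNA array. The log2 difference was 0.46 (SE 0.08, adjusted p = 2.03e-04), and 5 of its 6 probe sets rose, by 0.31 to 0.51. The call of 11760284_a_at was lost without control shRNA replicate 1 or IKKα shRNA replicate 1 or 3 (adjusted p of 0.0521 to 0.0726). The sixth, 11724479_x_at, differed by 0.31 (95% interval 0.05 to 0.57, adjusted p = 0.0663). Against vehicle, 5 of the 6 were higher as well, with 0.41 on the leading probe set (adjusted p = 6.15e-04). The call of 11760284_a_at there was lost without vehicle-treated replicate 1 (adjusted p = 0.0619) or IKKα shRNA replicate 3 (adjusted p = 0.0597), and that of 11724479_x_at without IKKα shRNA replicate 3 (adjusted p = 0.0523).

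On their leading probe sets, ETV1 and IER3 rose against control shRNA but did not pass against vehicle. ETV1 gave 8.20, 8.26 and 8.33 with IKKα shRNA, 7.49, 7.39 and 7.83 with control shRNA, and 7.93, 8.21 and 7.96 with vehicle. Its IKKα shRNA arrays were above the control shRNA arrays and overlapped with vehicle. This was a log2 difference of 0.70 (SE 0.16, adjusted p = 0.00254) against control shRNA and 0.23 (95% interval -0.11 to 0.57) against vehicle, and 4 of the 8 probe sets passed against control shRNA. Those besides the leading one rose by 0.65 (11733180_a_at), 0.64 (11733183_x_at) and 0.45 (11733182_a_at), and the 4 that did not pass differed by 0.10 to 0.27. Against vehicle, only 11733182_a_at of the 8 passed (0.28, adjusted p = 0.0333), a call lost when any array of the 2 groups but vehicle-treated replicate 3 was left out (adjusted p of 0.0537 to 0.130). The control shRNA calls of 11733180_a_at and 11733183_x_at among them were lost without single arrays (control shRNA replicate 1 or IKKα shRNA replicate 1 or 3 for the first, and IKKα shRNA replicate 2 for the other, adjusted p of 0.0507 to 0.0646). IER3 gave 9.77, 9.83 and 9.84 with IKKα shRNA, 9.27, 9.37 and 9.21 with control shRNA, and 9.53, 9.80 and 9.67 with vehicle. Its log2 difference was 0.53 (SE 0.08, adjusted p = 3.51e-05) against control shRNA and 0.14 (-0.02 to 0.31) against vehicle. The control shRNA arrays were themselves lower than vehicle for IER3, with a difference of -0.39 (adjusted p = 0.00298), and differed for ETV1 by -0.46 without passing (-0.80 to -0.13, adjusted p = 0.0555). That ETV1 difference passed without the probe sets under the lower quartile (adjusted p = 0.0463), with quantile normalization repeated (adjusted p = 0.0289), with an intensity trend (adjusted p = 0.0428), in a fit of the 2 groups alone (adjusted p = 0.0389) and with adjustment over genes (adjusted p = 0.0479).

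ETV5 gave 9.24, 9.27 and 9.17 with IKKα shRNA, against 9.16, 9.09 and 9.21 with control shRNA. These arrays overlapped, and the log2 difference was 0.07 (95% interval -0.18 to 0.33). The other 3 ETV5 probe sets differed by 0.11 to 0.19 from control shRNA, with no interval excluding 0. ETV4 gave 8.41, 8.51 and 8.53 with IKKα shRNA, against 8.66, 8.72 and 8.73 with control shRNA, so the groups were apart by a small margin. Its log2 difference was -0.22 (-0.52 to 0.09, adjusted p = 0.293), which passed when the 2 groups were fitted alone (adjusted p = 0.0446), and that of the second probe set -0.08 (-0.30 to 0.15). For ELK1 the leading difference was 0.15 (-0.06 to 0.36), and the other 2 probe sets gave -0.13 (-0.31 to 0.05) and 0.27 (-0.05 to 0.59).

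ETS1 probe sets disagreed. The leading one gave 8.39, 8.32 and 8.49 with IKKα shRNA, 8.92, 8.95 and 8.80 with control shRNA, and 8.42, 8.50 and 8.53 with vehicle. Control shRNA arrays were the high ones, and IKKα shRNA overlapped with vehicle. The fitted log2 difference was -0.49 against control shRNA (SE 0.07, adjusted p = 1.86e-05) and -0.09 against vehicle (95% interval -0.23 to 0.06). The dimmer probe sets went up, by 0.53 (11752387_a_at, adjusted p = 3.27e-04) and 0.52 (11722301_a_at, adjusted p = 0.00185) against control shRNA. Averaged over the 3 probe sets, the ETS1 difference was 0.19 against control shRNA, opposite in sign to the leading one. No single direction can be given for ETS1 under IKKα shRNA.

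ETS2 fell on both probe sets. The leading one gave 11.43, 11.36 and 11.41 with IKKα shRNA, 11.88, 11.91 and 11.93 with control shRNA, and 11.75, 11.75 and 11.81 with vehicle. The IKKα shRNA arrays were below both control groups. In log2 terms the difference was -0.51 (SE 0.07, adjusted p = 1.05e-05) against control shRNA and -0.37 (adjusted p = 3.03e-04) against vehicle, and 11742752_a_at differed by -0.76 and -0.62.

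**Figure D4:**
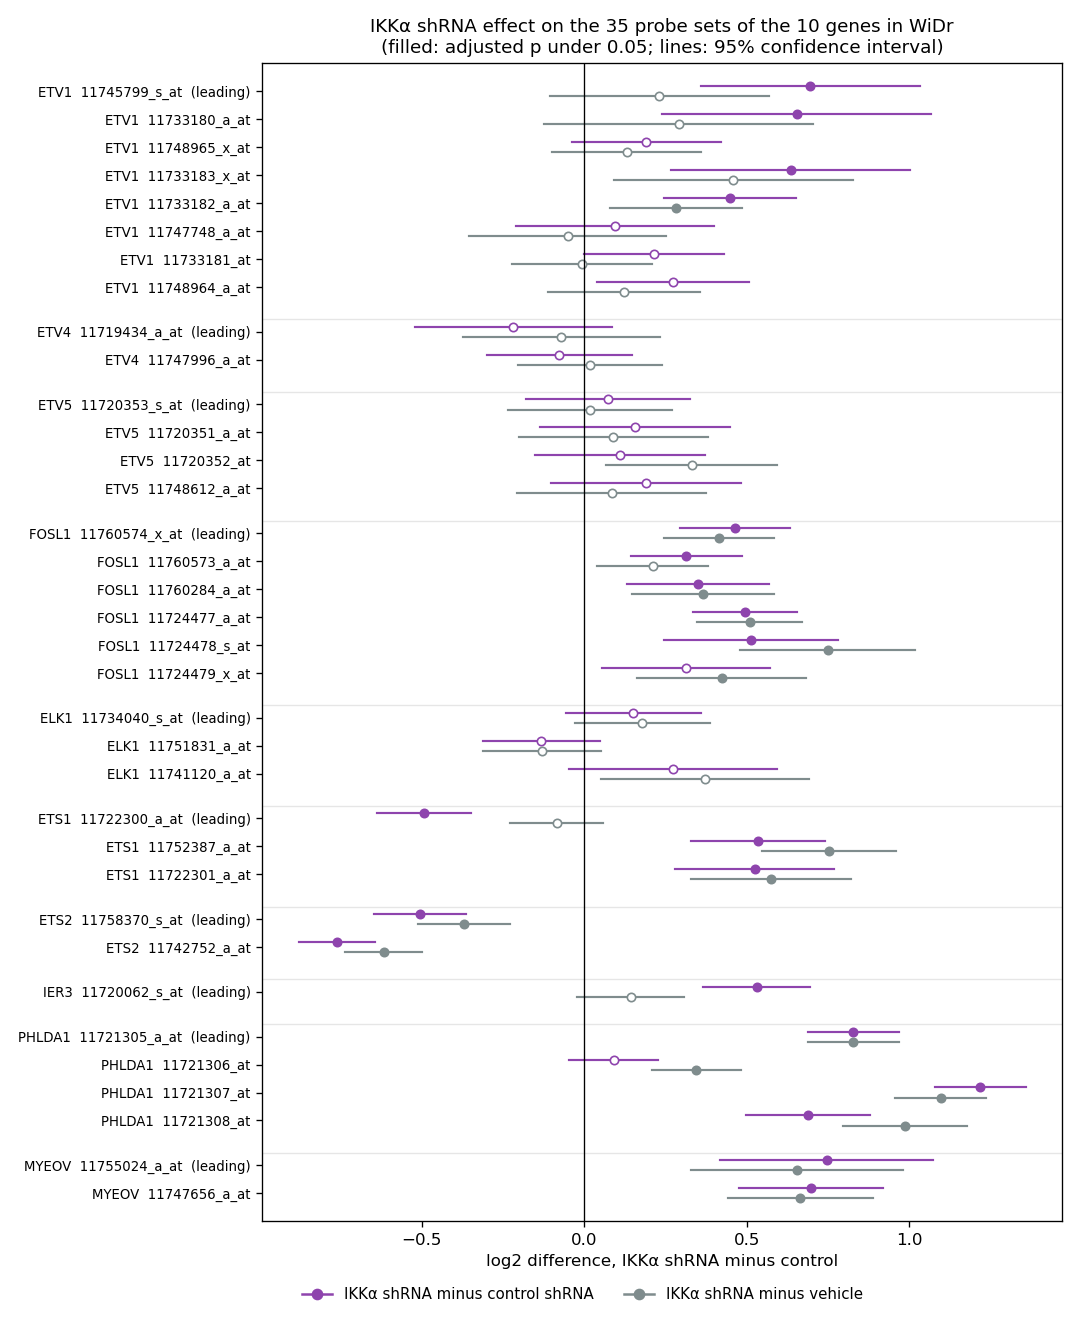
Log2 difference between IKKα shRNA and control shRNA, and between IKKα shRNA and vehicle, for all 35 probe sets in WiDr, with 95% confidence intervals. Filled points passed an adjusted p of 0.05. PHLDA1 11721307_at lies furthest right at 1.22 against control shRNA, and both ETS2 probe sets lie left of 0.

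The effects of IKKα shRNA and of AZ628 in WiDr were set against each other, as the shRNA effect over control shRNA minus the drug effect over vehicle. This difference of effects was positive and called for 27 of the 35 probe sets and negative for 1, where 18% and 18.7% of all probe sets were called in those directions. The difference was 5.51 for MYEOV (adjusted p = 1.58e-12), 5.20 for ETV1, 4.98 for ETV5, 3.08 for IER3, 2.34 for ETV4, 2.32 for PHLDA1 and 2.12 for FOSL1. For each of these genes the AZ628 fall was larger than the shRNA effect. The shRNA effects of ETV5 and ETV4 did not themselves pass (0.07 and -0.22), so a positive difference need not mean a rise with the shRNA. The leading ETS1 probe set was the negative one, at -1.46 (adjusted p = 1.05e-09). ETS2 fell under both, and the difference of its effects did not pass on either probe set (0.19, 95% interval -0.01 to 0.39, and 0.17, 0.00 to 0.34), though their average did (0.18, adjusted p = 0.0473).

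Control shRNA itself differed from vehicle for few members. It was higher for 3 probe sets and lower for 1, where 9.92% and 6.93% of all probe sets were called. The calls were the leading ETS1 probe set (0.41, adjusted p = 7.06e-04), PHLDA1 11721306_at (0.25, adjusted p = 0.0130) and 11721308_at (0.30, adjusted p = 0.0323), and IER3. Both PHLDA1 calls were lost without control shRNA replicate 2 (adjusted p = 0.0535 and 0.105), and that of 11721308_at also without control shRNA replicate 1 or vehicle-treated WiDr replicate 2 or 3 (adjusted p of 0.0860 to 0.104). Repeated quantile normalization ended both (adjusted p = 0.0725 and 0.135), and a fit of the 2 groups alone ended that of 11721306_at (adjusted p = 0.0621).

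Vehicle-treated HT29 differed from vehicle-treated WiDr on 4 probe sets upward and 9 downward, where 14.1% and 12.4% of all probe sets were called. HT29 had more ETV5, by 0.91, 1.04 and 0.92 on 3 of the 4 probe sets, and more IER3, by 0.77 (adjusted p = 6.24e-07). It had less PHLDA1 on all 4 probe sets, by -1.24 on 11721306_at (adjusted p = 1.25e-10), -0.84 on 11721308_at, -0.48 on the leading one and -0.26 on 11721307_at. ETV1 differed by -0.67 on the leading probe set (adjusted p = 0.00390) and by -0.35 on 11733181_at, the second call being lost without vehicle-treated WiDr replicate 3 or HT29 replicate 1 (adjusted p = 0.0845 and 0.0899). ETS2 differed by -0.34 on its leading probe set, while 11742752_a_at did not pass (-0.01, 95% interval -0.12 to 0.11). MYEOV differed by -0.44 (adjusted p = 0.0445), a call lost when any 1 of the 6 arrays was left out (adjusted p of 0.0627 to 0.127), as was that of ETV1 11733180_a_at (-0.59, adjusted p = 0.0319, and 0.0504 to 0.101 without an array). Under AZ628, 3 probe sets were higher in HT29 and 3 lower, where 14.6% and 14.1% of all were. Those were IER3 (1.23), the leading ETV5 probe set (0.72) and ETS2 11742752_a_at (0.32) upward, and PHLDA1 11721306_at (-0.85), 11721308_at (-0.74) and the leading one (-0.28) downward.

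Ordered by group mean, AZ628-treated HT29 and AZ628-treated WiDr held the lowest places for 9 of the 10 leading probe sets, and the highest for ETS1. Above them, vehicle-treated HT29 led for ETV5 and IER3 with no overlap with the next group. IKKα shRNA led for FOSL1, PHLDA1 and MYEOV without overlap, and for ETV1 with arrays that overlapped vehicle-treated WiDr. Control shRNA led for ETS2. For ETV4 the 4 groups without AZ628 overlapped each neighbour in turn, from 8.70 with control shRNA to 8.49 with IKKα shRNA. The ELK1 groups without AZ628 did the same, from 8.86 in vehicle-treated HT29 to 8.65 in vehicle-treated WiDr.

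The 10 genes stood beside the wider ETS family and pathway, described through lists of other genes and their leading probe sets. Each count is to be read against the leading probe sets of all genes, of which 22.8% were higher and 20.5% lower with AZ628 in WiDr, 21.8% and 20.4% in HT29, and 14.9% and 18.1% with IKKα shRNA against control shRNA. The shares of the other ETS factors with AZ628 were near these. Of 21 other ETS factors, 6 rose and 4 fell with AZ628 in WiDr, with a median of 0.01, and 6 rose and 4 fell in HT29, with a median of 0.06. The epithelial ETS factor ELF3 rose by 1.79 in WiDr and 1.91 in HT29, ELF1 by 1.02 and 0.60, and EHF by 0.75 and 0.43. The ELK1 relatives ELK4 (-1.52 and -1.50) and ELK3 (-1.18 and -0.45) fell. With IKKα shRNA against control shRNA, 2 of the 21 rose and 3 fell, ELF5 by 1.43 and SPDEF by -0.48 being the largest in each direction. Among 11 AP-1 genes, 2 rose and 3 fell in each line. FOSL2 (2.12 in WiDr, 1.43 in HT29) and JUN (1.0 and 1.5) rose. The lowest difference among the 11 was -0.61 in WiDr and -1.69 in HT29, and the medians were -0.07 and 0.09. With IKKα shRNA against control shRNA, 3 of the 11 rose and 2 fell. FOS differed from control shRNA by -1.69, and control shRNA itself differed from vehicle by -1.50. Of 7 regulators of PEA3 factors, 1 rose and 2 fell in WiDr, 2 rose and 2 fell in HT29, and 1 rose and 1 fell with IKKα shRNA. The ubiquitin ligase scaffold CUL4A fell in WiDr (-0.71) and HT29 (-0.86) with AZ628 and with IKKα shRNA (-1.04), while the PEA3 repressor CIC did not pass (0.04, -0.02 and -0.02 in the same order).

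**Figure D5:**
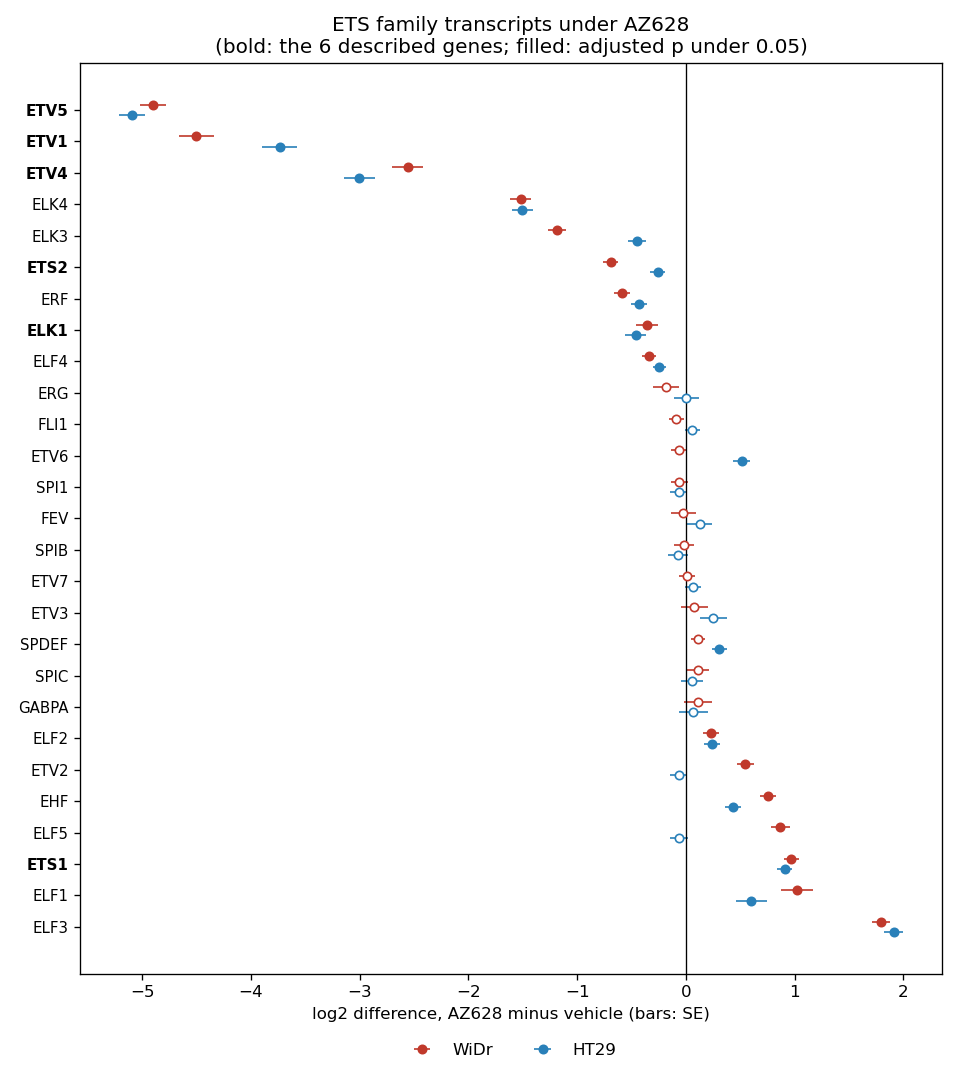
Log2 difference between AZ628 and vehicle for the leading probe set of each ETS family gene in WiDr and HT29, with bars of 1 SE. Names in bold are the 6 ETS genes described. ETV5, ETV1 and ETV4 lie furthest left, and ELF3 furthest right at 1.79 and 1.91.

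All these lists were chosen with earlier results of these data known, so their counts are descriptions. Of all leading probe sets, 20.5% were lower with AZ628 in WiDr and 20.4% in HT29. Of 18 other genes of ERK pathway output, 15 fell in WiDr and 17 in HT29, with medians of -1.97 and -1.94. They included the phosphatase DUSP6 (-4.14 in WiDr, -4.67 in HT29), MYC (-3.98 and -3.14), the cyclin CCND1 (-3.34 and -2.77) and the chemokine CXCL8 (-4.23 and -2.11). With IKKα shRNA against control shRNA, 5 of the 18 rose and 3 fell. CXCL8 was higher by 2.40 and EREG by 1.87, and control shRNA was lower than vehicle for both (-1.35 and -0.46). SPRED1, an inhibitor of the pathway, fell by 1.12. Of 15 described targets of PEA3 factors or FOSL1, 10 fell and 1 rose in WiDr with AZ628, and 9 fell and 3 rose in HT29, with DUSP6 counted in this list too. The chemokine receptor CXCR4 (-4.85 and -4.01), the urokinase receptor PLAUR (-2.33 and -1.86) and the protease MMP7 (-1.46 and -1.70) fell in both lines. With IKKα shRNA 7 of the 15 rose and 2 fell, where 14.9% and 18.1% of all leading probe sets did, with PLAU up by 2.58, PTGS2 by 2.37 and VEGFA by 1.33.

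Likeness of profile was measured over the 18 arrays as the root mean square difference in log2 signal after each gene was centred on its own mean. The MYEOV and ETV1 profiles were 0.31 apart. Outside the set, only protein-coding genes were ranked. Symbols that begin with LOC, KIAA, FAM, TMEM or ZNF or that contain orf were passed over. Of the genes left, MYC (0.42), DUSP6 (0.48) and CCND1 (0.51) were nearest to ETV1. CEMIP (0.48), DUSP6 (0.52) and CXCR4 (0.66) were nearest to ETV5, and DUSP6 (0.56), MYC (0.57) and FJX1 (0.64) to MYEOV. The replication gene MCM10 (0.22) was nearest to ETV4, the receptor TNFRSF12A (0.12) to FOSL1, KLK6 (0.16) to PHLDA1 and RPP40 (0.28) to IER3. Genes that vary little across the groups give small values whatever their pattern, and ELK1, ETS1 and ETS2 had RHOG (0.09), BLTP3B (0.09) and MNX1 (0.09) nearest.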

How the data were processed

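Total RNA (100 ng) was labelled and hybridised to Affymetrix arrays, 1 array per sample. The deposited table holds log2 signals made by the authors with RMA, which corrects background, quantile normalizes and summarises probes per set. The submitters' processing notes name this step, limma and R 3.0.2. A genome build is not given in the sources used here. RMA compresses differences near background. Here 102 control probe sets were left out and the other 49293 fitted with limma 3.58.1 (R 4.3.3, with data.table version 1.17.8): 6 groups of 3 arrays, one spread per probe set (12 residual and 5.02 prior degrees of freedom), two-sided moderated tests, Benjamini-Hochberg within each contrast, calls at 0.05, intervals of 95%. Symbols came from the platform annotation: 44988 of these probe sets had 1 symbol and 1832 several. The fit was tested on simulated data. Figures used Python 3.11.15 and matplotlib 3.10.9.

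For likeness, the 3 nearest profiles were named for ETV1, ETV5 and MYEOV, and only the nearest for the other members. Also named were every probe set of the 10 members, CHUK, and up to 4 genes with the largest passing change per list and contrast. Genes named beyond that to complete a small count or a control comparison were chosen after their values were seen. The members and the lists were chosen with earlier results of these data known. Alternatives were a 2-fold minimum, leaving out the dimmest 25% of probe sets, repeated quantile normalization, an intensity trend with a robust prior, fitting the compared groups alone, the replicate number as a block, a mean over a gene's probe sets, adjustment over genes, and leaving out each array.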

Additional observations from a re-analysis of the deposited data

Results flagged for a closer look

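The AZ628 effect differed between HT29 and WiDr on 6 of the 35 probe sets, by the test of the difference itself in limma (HT29 effect minus WiDr effect, log2). It was -0.96 for ETV5 11720351_a_at and -0.77 for ETV5 11720352_at, while the leading ETV5 probe set gave -0.19 without passing. The differences were 0.43 for ETS2 11758370_s_at and 0.33 for ETS2 11742752_a_at. They were 0.46 for IER3 11720062_s_at and 0.39 for PHLDA1 11721306_at. The calls of IER3 and ETS2 11742752_a_at were lost when certain single arrays were left out (adjusted p of 0.0501 to 0.0557). The ETV5 probe sets started higher in vehicle-treated HT29 than in vehicle-treated WiDr, by 1.04 and 0.92, and reached AZ628 levels of 4.13 and 3.44 in HT29 and 4.05 and 3.28 in WiDr. Over all probe sets 5.51% were called in this test. Those ETV5 levels with AZ628 were all under the lower quartile of 4.29. The depths of the ETV5 falls thus cannot be told apart from the vehicle difference. For the other probe sets the part of the vehicle levels was not tested.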

How the results depend on the processing

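With a 2-fold minimum added, the member calls were 19 (AZ628 in WiDr), 17 (AZ628 in HT29), 1 (IKKα shRNA against control shRNA), 1 (IKKα shRNA against vehicle), 0 (control shRNA against vehicle), 2 (HT29 against WiDr, vehicle), 1 (HT29 against WiDr, AZ628) and 0 (difference of AZ628 effects), fewer by construction. Over all probe sets the same minimum left 3517, 2856, 1543, 1233, 151, 1037, 1230 and 363 calls in that order, and 5081 for the shRNA effect minus the drug effect, against 19354, 18871, 14634, 15404, 8307, 13057, 14134, 2716 and 18120 without it. Leaving out single arrays gave 29 to 31 member calls for AZ628 in WiDr, 28 to 29 in HT29, 18 to 22 for IKKα shRNA against control shRNA, 13 to 17 against vehicle, 2 to 5 for control shRNA against vehicle (2 without control shRNA replicate 2, and 4535 to 8114 calls over all probe sets), 10 to 12 and 6 to 9 for HT29 against WiDr with vehicle and with AZ628, 5 to 8 for the difference of AZ628 effects and 28 to 30 for the shRNA effect minus the drug effect. Same-numbered arrays showed no strong pairing: their deviations from group means correlated at -0.21 to 0.22, and at 0.05 to 0.09 for IKKα shRNA and control shRNA. With 3 arrays a group, this check could miss a weaker pairing. The fit with the replicate number as a block gave 31 and 28 member calls for AZ628 in WiDr and HT29 and 20 for IKKα shRNA against control shRNA. The block ended the MYEOV call between vehicle-treated lines (-0.44, adjusted p = 0.0539) and brought ETV1 past the threshold for control shRNA against vehicle (adjusted p = 0.0417) and for the difference of AZ628 effects (adjusted p = 0.0424). Of 2270 values of single genes or probe sets under alternatives, 2184 kept sign and side of the threshold, 54 lost a call, 25 gained one and 7 turned sign. The ETV5 difference between IKKα shRNA and vehicle, 0.017, became -0.029 with repeated quantile normalization and ranged from -0.030 (without vehicle-treated WiDr replicate 3) to 0.076 over single arrays left out, with -0.0059 without IKKα shRNA replicate 2. The ETV4 difference there, -0.070, ranged from -0.12 to 0.010, positive without vehicle-treated WiDr replicate 1, and the ELK1 difference of AZ628 effects, -0.10, became 0.0055 without vehicle-treated HT29 replicate 1. None of these passed. Averaging probe sets turned ETS1 to 0.19 (adjusted p = 0.0213) against control shRNA and 0.41 (adjusted p = 2.87e-05) against vehicle. Causes were not tested. Signal near background limits the dim ETV1 probe sets, ETS1 11722301_a_at and, with AZ628, ETV5 11720351_a_at and 11720352_at.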

Other observations

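Other early survival and PHLDA family genes split under AZ628. Of 10 measured, 6 rose and 3 fell in WiDr, and 5 rose and 3 fell in HT29, where 22.8% and 20.5% of all leading probe sets did so in WiDr and 21.8% and 20.4% in HT29. The stress gene GADD45A rose by 1.12 in WiDr and 1.51 in HT29, and the PHLDA1 relative PHLDA2 fell by 1.08 and 1.28. With IKKα shRNA against control shRNA, GADD45B rose by 0.62 and PHLDA2 fell by 0.38, so PHLDA2 was lower where PHLDA1 was higher.

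Of 12 listed kinases and small GTPases of the pathway, 7 had a probe set that carried their symbol alone. Whether probe sets with several symbols cover the others was not examined. With AZ628, 2 of the 7 rose and 2 fell in each line. Of all leading probe sets, 22.8% rose and 20.5% fell in WiDr, and 21.8% and 20.4% in HT29. HRAS fell with AZ628 by 1.06 in WiDr and 0.97 in HT29. MAPK3 (ERK1) rose by 0.95 and 0.67. With IKKα shRNA against control shRNA, 0 of the 7 rose and 3 fell, where 14.9% and 18.1% of all leading probe sets did. MAPK3 with IKKα shRNA was lower than control shRNA by -0.94 and lower than vehicle by -0.45. Control shRNA was higher than vehicle for MAPK3 by 0.49.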
